A study of Mus musculus with 2 samples.

Results

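The endoplasmic reticulum (ER) stress and folding genes described here are 35 genes for ER chaperones, disulfide enzymes, stress sensors, their transcription factors and target genes, factors of ER-associated degradation and subunits of the protein translocation channel. They were listed by name, with earlier results of these data known but by a rule that uses no measured value. Each was represented by the array probe set (a group of probes for 1 transcript region) that GEO's platform annotation gives exactly 1 gene symbol, with the brightest by its mean over the arrays taken where there were several. All 35 had a value, of 19937 genes with a value in all. The annotation lists 34 under the given symbol and Ero1l under its newer symbol Ero1a. RNA was measured in TR1 cells (type 1 regulatory T cells, CD4 T cells that secrete IL-10) of the mouse small intestine, with 1 array for each of 2 genotypes. The wildtype sample came from mice whose IL-10 receptor was unaltered, and the impaired sample from CD4-DNIL-10R transgenic mice, in which elements of the Cd4 gene drive a dominant-negative IL-10 receptor in T cells. Mice of both genotypes had been given anti-CD3 (clone 2C11), an antibody that activates T cells, in 2 injections of 15 μg on alternate days, and were killed 4 or 48 hours after the last one; the labels do not tie these times to samples, nor name the strain, age or number of mice. They name no sorting scheme for the cells either.

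Proteins that a cell secretes or displays on its surface, cytokines and receptors among them, are threaded into the ER through the SEC61 channel, folded there by chaperones and joined by disulfide bonds; those that fail to fold are pulled back and degraded. When unfolded protein accumulates, a trio of sensors in the ER membrane respond: IRE1 (Ern1) splices Xbp1 mRNA, ATF6 is cut to release a transcription factor, and PERK (Eif2ak3) phosphorylates a translation factor, which slows protein synthesis while translation of Atf4 goes up. XBP1 and ATF6 induce chaperone and degradation genes, whereas ATF4 induces amino acid synthesis and stress genes, and is also reached by sensors of amino acid shortage outside the ER. Splicing, cleavage and phosphorylation are not read by a single value per gene, so the values below give the amount of each mRNA and not the activity of the sensors.

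Some promoters of these genes carry elements by which the pathway is known to act, and these are shown first because the genes are grouped by them again below. RefSeq windows (GRCm38.p6) of 300 bases, 250 before and 50 after the annotated start, were at hand for 30 of the 35 genes. They were searched on both strands for the ER stress response element ERSE (CCAAT, 9 bases of any kind, then CCACG; bound by ATF6 with the factor NF-Y), for ERSE-II (ATTGG, 1 base of any kind, then CCACG), for the core TGACGTGG of the unfolded protein response element UPRE, bound by XBP1, and for TGATGNAA, the composite element CARE bound by ATF4 with C/EBP proteins. CCACG ends both ERSE forms and also lies in the UPRE core read on the other strand, so these motifs can overlap in part. ERSE was found in 8 of the 30 windows (26.7%), against 37 of 27025 genes (0.137%) with a window that was searched. Windows on a chromosome that was left out of the search are not counted. The matches, read in the direction of the motif, with its fixed letters in capitals, were as follows.
Hspa5: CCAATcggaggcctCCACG
Hsp90b1, farther match: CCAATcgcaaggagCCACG
Hsp90b1, nearer match: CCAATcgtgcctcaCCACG
Pdia6: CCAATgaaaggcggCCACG
Dnajc3: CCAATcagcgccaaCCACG
Creld2: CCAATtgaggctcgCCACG
Calr: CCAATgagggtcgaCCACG
Canx: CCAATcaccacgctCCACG
Syvn1: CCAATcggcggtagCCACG

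The spacer letters differed from gene to gene. The first letter of the match lay between positions -212 and -44 relative to the start, the farther of the Hsp90b1 pair being the most distant and that of Syvn1 the nearest. ERSE-II was found in 2 of the 30 windows (6.67%), those of Herpud1 and Dnajb11, against 12 genes (0.0444%) of those searched. The UPRE core was found in 0 of the 30, against 0.714% of the genes searched. CARE was found in 4 of the 30 (13.3%), those of Chac1, Asns, Herpud1 and Trib3, against 1219 genes (4.51%). A match describes these letters and not a bound site, and the absence of one says only that the letters are not in this window.

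The 250 bases before the start are printed for 3 chaperone or disulfide genes with ERSE and for 3 genes with CARE, with the fixed letters of each match in capitals on whichever strand it was found.
Hspa5, chr2:34771840-34772089, plus strand: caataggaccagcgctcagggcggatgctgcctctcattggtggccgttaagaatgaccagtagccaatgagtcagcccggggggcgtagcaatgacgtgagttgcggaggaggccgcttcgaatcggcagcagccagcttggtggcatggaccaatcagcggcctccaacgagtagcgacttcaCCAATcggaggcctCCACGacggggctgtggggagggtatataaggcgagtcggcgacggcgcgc
Hsp90b1, chr10:86705445-86705694, minus strand: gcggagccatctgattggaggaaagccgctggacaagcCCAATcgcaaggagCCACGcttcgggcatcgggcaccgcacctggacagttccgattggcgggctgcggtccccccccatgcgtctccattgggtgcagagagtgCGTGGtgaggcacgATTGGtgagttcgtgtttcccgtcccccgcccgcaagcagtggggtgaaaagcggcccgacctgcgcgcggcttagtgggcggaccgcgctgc
Pdia6, chr12:17266339-17266588, plus strand: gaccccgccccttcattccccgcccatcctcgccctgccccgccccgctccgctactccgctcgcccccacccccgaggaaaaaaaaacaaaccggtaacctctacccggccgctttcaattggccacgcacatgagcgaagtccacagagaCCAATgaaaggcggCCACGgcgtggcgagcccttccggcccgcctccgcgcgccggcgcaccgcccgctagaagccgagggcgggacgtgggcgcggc
Asns, chr6:7693210-7693459, minus strand: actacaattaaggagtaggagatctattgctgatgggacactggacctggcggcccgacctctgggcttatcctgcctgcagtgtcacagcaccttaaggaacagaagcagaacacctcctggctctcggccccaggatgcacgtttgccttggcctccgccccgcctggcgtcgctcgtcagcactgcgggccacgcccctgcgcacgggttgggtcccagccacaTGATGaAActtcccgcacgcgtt
Chac1, chr2:119350992-119351241, plus strand: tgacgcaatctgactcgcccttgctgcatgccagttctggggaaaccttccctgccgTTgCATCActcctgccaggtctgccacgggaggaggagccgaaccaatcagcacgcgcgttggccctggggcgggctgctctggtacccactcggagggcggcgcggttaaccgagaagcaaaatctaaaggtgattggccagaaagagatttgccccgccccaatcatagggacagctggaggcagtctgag
Herpud1, chr8:94386179-94386428, plus strand: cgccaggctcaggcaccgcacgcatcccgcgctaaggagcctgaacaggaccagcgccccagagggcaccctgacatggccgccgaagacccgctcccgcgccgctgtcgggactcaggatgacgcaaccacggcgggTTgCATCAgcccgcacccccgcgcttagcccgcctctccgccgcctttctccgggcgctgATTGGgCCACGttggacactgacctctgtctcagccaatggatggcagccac

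Expression is given as the deposited log2 RMA level of each sample, and differences are impaired minus wildtype, so that 1 is a 2-fold higher signal in the impaired sample. With 1 array per genotype there is no replicate, no spread between replicates and no test, and every difference describes these 2 arrays only. Brightness also depends on the probes, so a level does not give the abundance of 1 mRNA against another, and is used below only to set genes beside others of like signal. All 35 genes lay at or above 6.91 in at least 1 sample, the median over probe sets of the mean level, here called the floor, and 34 did so in both; the wildtype value of Trib3 alone lay below it. Across the array 10274 of 19937 genes (51.5%) were above 0 and 9491 (47.6%) below, with a median difference of 0.01.

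Most of the chaperone and folding-enzyme genes were slightly dimmer in the impaired sample, while the stress target genes were brighter. Of the 35 genes 20 lay below 0 and 15 above, and their median difference was -0.09, which became -0.02 when the differences were centred by a loess curve on brightness. Chac1 and Asns were the only 2 that differed by 1.5-fold or more, both higher in the impaired sample, against 3.58% of all genes called higher by that rule. By the same rule 0 of the 35 were lower, against 1.8% of all genes, and 0 differed by 2-fold, against 0.828% of all genes higher and 0.191% lower by 2-fold. The differences ran from -0.50 for Hspa13 to 0.73 for Chac1. The plot of levels by gene shows both samples for each.

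**Figure D1:**
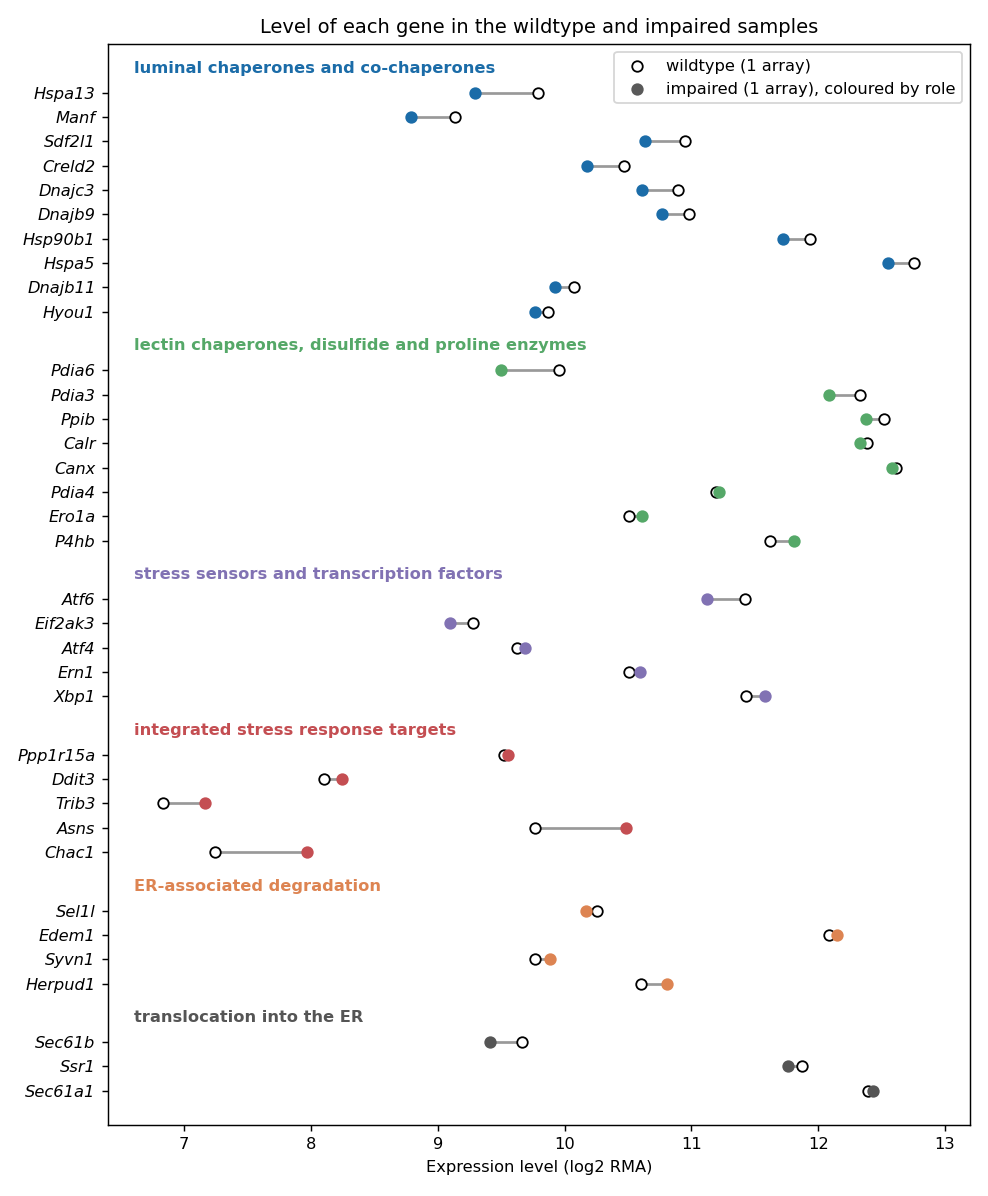
Expression level (log2 RMA, horizontal axis) of each of the 35 genes in the wildtype sample (open circles) and the impaired sample (filled circles, coloured by role), 1 array each, with a grey line joining them. In all 10 luminal chaperone and co-chaperone genes the filled circle lies to the left, and in all 5 integrated stress response targets it lies to the right.

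The 10 genes grouped here as chaperones and co-chaperones of the ER lumen were all dimmer in the impaired sample. Their median difference was -0.25 (1.19-fold), with a range from -0.50 to -0.10. Each had a mean level at or above 8.86, and of all 5618 genes at that level 59.8% lay below 0. By the 1.5-fold rule 0 of the 10 were lower, against 1.8% of all genes. Lectin chaperones and disulfide enzymes were grouped apart and did not share a direction. Hspa5 encodes BiP, the main ER chaperone of the HSP70 family, which also holds the stress sensors inactive; it stood at 12.75 on the wildtype array and 12.55 on the impaired array, a difference of -0.21. Hsp90b1, the HSP90 chaperone of the ER, on which integrins and Toll-like receptors depend, stood at 11.93 and 11.72 (-0.21). Both were dimmer by about the same amount. Hspa13, another HSP70 family member of the ER, had the lowest difference of all 35 genes, at 9.79 on the wildtype array and 9.30 on the impaired array (-0.50, 1.41-fold). Hyou1, which exchanges the nucleotide of BiP, was the closest to equal of the luminal group, at 9.87 and 9.77 (-0.10).

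The J-domain co-chaperones, which hand unfolded proteins to BiP and stimulate its ATPase, lay on the same side of 0. Dnajb9 stood at 10.98 on the wildtype array and 10.77 on the impaired array (-0.21). Dnajb11 stood at 10.07 and 9.92 (-0.15). Dnajc3, which carries an ERSE in its promoter window, stood at 10.90 and 10.61 (-0.29). Small soluble proteins that are strongly induced by ER stress completed the group, and their differences were among the lower ones. Sdf2l1, a partner of the J-domain protein of Dnajb11, stood at 10.95 on the wildtype array and 10.64 on the impaired array (-0.31). Creld2 stood at 10.47 and 10.18 (-0.29). Manf, a factor that is retained in the ER and secreted under stress, stood at 9.13 and 8.79 (-0.35, 1.27-fold).

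The lectin chaperones and the enzymes of disulfide and proline chemistry were mixed, with 5 below 0, 3 above and a median of -0.04. Under loess centring 4 lay on each side and the median was -0.0035, and with the probe sets of a gene averaged 6 lay below 0 and the median was -0.08. Calr and Canx encode calreticulin and calnexin, which bind glycoproteins through their sugars, and both were nearly equal in the 2 samples. Calr stood at 12.38 on the wildtype array and 12.33 on the impaired array (-0.05), and Canx at 12.62 and 12.58 (-0.04). Pdia3, the disulfide isomerase that works with them and is part of the loading complex of MHC class I, was dimmer, at 12.33 and 12.08 (-0.25). Among the other disulfide isomerases Pdia6 had the lowest difference after Hspa13, at 9.96 on the wildtype array and 9.49 on the impaired array (-0.46, 1.38-fold). P4hb, the classical protein disulfide isomerase, went the other way, at 11.62 and 11.81 (0.19). Pdia4 stood at 11.19 and 11.22 (0.03); another, dim probe set of it, below the floor in both samples, differed by -0.24. The isomerases therefore did not share a direction. Ero1a, the oxidase that recharges them, stood at 10.50 and 10.61 (0.11). Ppib, cyclophilin B, a proline isomerase of the secretory pathway, stood at 12.52 and 12.37 (-0.15).

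Of the channel through which proteins enter the ER, the pore subunit gave nearly equal values, an associated subunit was slightly dimmer in the impaired sample, and a small subunit gave no single answer. Sec61a1, the pore of the channel, stood at 12.39 on the wildtype array and 12.43 on the impaired array (0.04). Ssr1, a subunit of the translocon-associated protein complex, stood at 11.88 and 11.76 (-0.11). Sec61b, a small subunit of the channel, has 3 probe sets that disagreed in sign. The brightest, which represents the gene here, stood at 9.66 and 9.41 (-0.25), the next at 9.35 and 9.47 (0.12) and the dimmest at 8.28 and 8.66 (0.38), so no direction is given for it. The median of the 3 genes was -0.11, with 1 above 0 and 2 below. It became 0.04, with 2 above, when the probe sets of a gene were averaged, and -0.06 under loess centring.

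Genes of ER-associated degradation, which draws misfolded proteins out for the proteasome, leaned to the other side by small amounts. Of the 4 genes 3 lay above 0, with a median of 0.09 (0.15 under loess centring). Herpud1, a stress-induced organiser of the degradation complex whose window holds both an ERSE-II and a CARE, stood at 10.60 on the wildtype array and 10.80 on the impaired array (0.20). Syvn1, the ubiquitin ligase HRD1 at the centre of the complex, stood at 9.76 and 9.89 (0.12), and its partner Sel1l at 10.26 and 10.17 (-0.09). Edem1, a mannosidase-like protein that marks glycoproteins for disposal, stood at 12.09 and 12.15 (0.07). The subunits Syvn1 and Sel1l thus lay on opposite sides of 0, each by little.

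The stress sensors and their transcription factors had a median of 0.06 (0.13 under loess centring), with 3 of 5 above 0. Ern1, which encodes IRE1, stood at 10.51 on the wildtype array and 10.59 on the impaired array (0.08), and its substrate Xbp1 at 11.43 and 11.58 (0.15). Atf6, whose product is the sensor and transcription factor ATF6, was the lowest of the group, at 11.43 and 11.13 (-0.30, 1.23-fold). Eif2ak3, which encodes PERK, stood at 9.28 and 9.09 (-0.19). Atf4, which is regulated mostly in its translation, stood at 9.62 and 9.69 (0.06). Ern1 and Xbp1 were thus slightly brighter and Atf6 and Eif2ak3 slightly dimmer in the impaired sample. These few small differences do not give a direction for an arm of the pathway.

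Targets of the integrated stress response, the program that ATF4 carries out, were brighter in the impaired sample in each of the 5 cases. Their median difference was 0.33 (1.26-fold), which is the value of Trib3, the gene below the floor in the wildtype sample, and 2 reached 1.5-fold. The median of the 2 bright ones was 0.37, which is the midpoint of Asns (0.72) and Ppp1r15a (0.03) and describes neither. Asns, asparagine synthetase, stood at 9.77 on the wildtype array and 10.48 on the impaired array (0.72, 1.64-fold). Chac1, which degrades glutathione, stood at 7.24 and 7.97 (0.73, 1.66-fold). Chac1 is close to the floor, where RMA compresses differences, and its value became 0.62 with 32 added on the linear scale. Trib3, a pseudokinase that restrains ATF4, stood at 6.83 and 7.16 (0.33). Ddit3, the transcription factor CHOP linked to cell death under stress, stood at 8.10 and 8.25 (0.15). Ppp1r15a, the phosphatase subunit GADD34 that lets translation resume, stood at 9.52 and 9.55 (0.03). The size of the difference thus ranged from near nothing in Ppp1r15a to the largest of the 35 genes in Chac1 and Asns.

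The median of the bright genes lay below 0, and the side of the dim genes depended on the bound between them. Genes were called bright when the mean of both samples was at or above 8.86, the 75th percentile over probe sets, which took 32 of the 35. The faintest of these was Manf at 8.96, and the brightest of the dim ones was Ddit3 at 8.17. Among the 32 bright genes 20 lay below 0 and 12 above, with a median of -0.11 (-0.05 under loess centring). Among all 5618 bright genes 59.8% lay below 0 and 40.0% above, with a median of -0.05, so most bright genes of the array leaned the same way. The 3 dim genes, Chac1, Trib3 and Ddit3, were all above 0 with a median of 0.33, whereas 56.1% of the 14319 dim genes were above 0 with a median of 0.03. With the bound at the 90th percentile the bright median was -0.05, and the dim genes numbered 16 with a median of -0.10. Chac1, Trib3 and Ddit3 are also stress targets, so brightness and role cannot be told apart in them. Leaving out the 5 stress targets, the other 30 genes were all bright, with 20 below 0 and a median of -0.13.

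The bright genes were also split into the upper and the lower bands. The 13 genes between the 75th and the 90th percentile (8.86 to 10.44) had a median of -0.15 and a range from -0.50 to 0.72, and the 19 genes at or above the 90th had a median of -0.05 and a range from -0.31 to 0.20. All genes of the same bands had medians of -0.05 and -0.05. Over all 35 genes Pearson's r between brightness and difference was -0.26 and Spearman's rho -0.08, and over the 30 other than the stress targets they were 0.28 and 0.25. These describe genes that share 2 arrays, and the sign turned with the 5 stress targets. For single genes, 2.75% of the 3598 genes in its band had a lower difference than Hspa13, 3.53% a lower one than Pdia6 and 10.1% a lower one than Manf. In the brightest band of 2020 genes the shares were 8.37% for Sdf2l1, 8.91% for Atf6, 9.70% for Dnajc3, 17.8% for Hsp90b1 and 18.0% for Hspa5. At the other end 96.7% of the genes in its band lay lower than Asns and 95.4% lower than Chac1. For the other stress targets the shares were 82.1% for Trib3, 63.3% for Ppp1r15a and 61.1% for Ddit3. Within their bands the luminal chaperones thus ran from Hspa13 at 2.75% to Hyou1, below which 41.8% of its band lay.

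**Figure D2:**
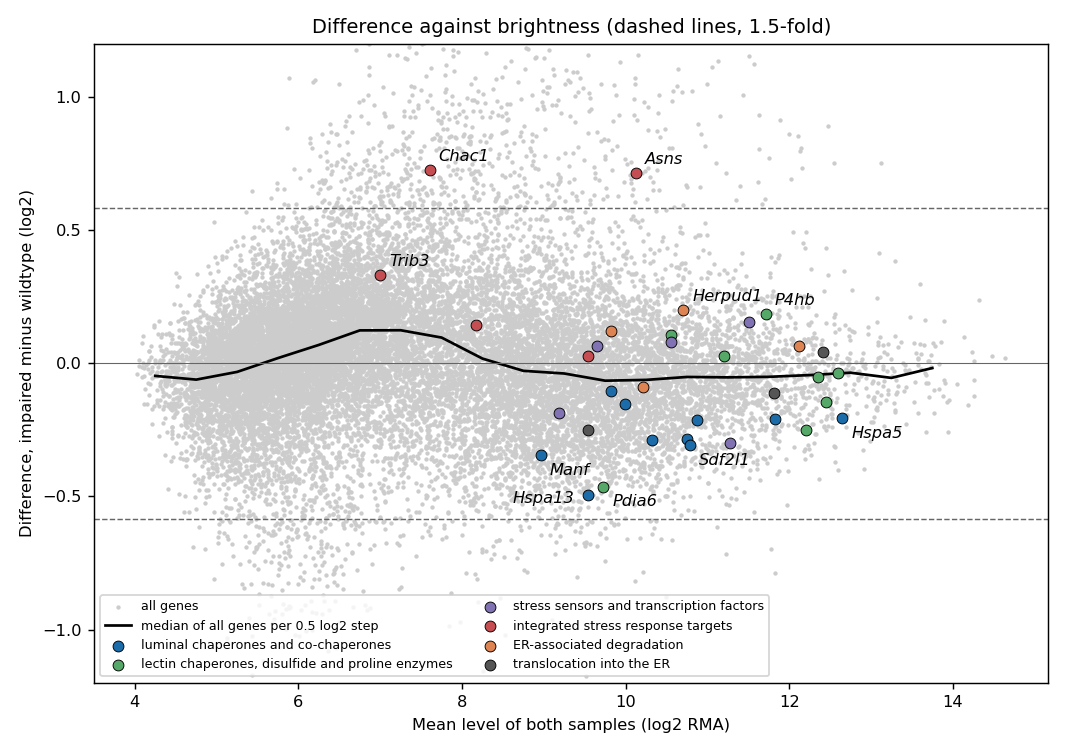
Difference (impaired minus wildtype, log2, vertical axis) against the mean level of both samples (log2 RMA, horizontal axis) for all genes (grey) and the 35 genes (coloured by role); the black line is the median of all genes in steps of 0.5 and the dashed lines mark 1.5-fold. The luminal chaperones lie below the line, Chac1 and Asns lie above the upper dashed line, and 96 other genes beyond 1.2 are outside the plotted range.

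Related genes that are not among the 35 were read from 6 lists, of which 154 of 166 entries had a value. For comparison, 47.6% of all genes lay below 0 and 51.5% above, and among bright genes 59.8% and 40.0%. Other factors of the translocon, signal peptidase and glycosylation were mostly dimmer in the impaired sample: 25 of 30 lay below 0, with a median of -0.19 (-0.12 under loess centring), and 1 was lower by 1.5-fold, against 1.8% of all genes. That gene was Spcs3, a subunit of the signal peptidase, at 10.59 on the wildtype array and 10.00 on the impaired array (-0.59); the catalytic subunits of the same enzyme, Sec11c and Sec11a, differed by -0.45 and -0.34. Among other folding factors 20 of 34 lay below 0 (median -0.04, and -0.01 under loess centring). The membrane-bound thioredoxins Tmx4 (-0.64), Tmx1 (-0.55) and Tmx3 (-0.45) had the largest differences, and Tmx4 alone reached 1.5-fold. Of the 13 bright members of that list 10 lay below 0, with a median of -0.14. Other degradation factors had 16 of 22 below 0 (median -0.06, and -0.0031 under loess centring), led by Selenos (-0.49), the ubiquitin ligase Rnf139 (-0.48) and Ufd1 (-0.47), a cofactor of the extracting ATPase. Here the median lay on the other side of 0 from that of Herpud1, Syvn1, Sel1l and Edem1 (0.09).

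Other genes of the ATF4 and amino acid response were mostly brighter in the impaired sample, as the 5 stress targets were. Of 32 genes 25 lay above 0, with a median of 0.15, and 4 were higher and 0 lower by 1.5-fold, against 3.58% and 1.8% of all genes. The 4 were Cth, Atf3, Eif4ebp1 and Slc7a11, a cystine transporter, which lay below the floor in both samples at 5.41 and 6.07 (0.66) and was chosen after its values were seen. Among the 17 bright ones 14 lay above 0 (median 0.19), whereas bright genes in general leaned below 0. Cth, which makes cysteine, stood at 7.28 on the wildtype array and 8.30 on the impaired array (1.02) and was the only one past 2-fold. Atf3, a stress-induced transcription factor, stood at 8.34 and 9.05 (0.71), and Eif4ebp1, a translation inhibitor, at 8.71 and 9.39 (0.68). Other sensors and regulators had 8 of 14 below 0 (median -0.06, and -0.0039 under loess centring), against 47.6% of all genes. Among the 10 bright ones 7 lay below 0 (median -0.12), against 59.8% of bright genes in general. Ern2 (0.69) and Creb3l1 (0.57) were the highest, and Map3k5, a stress kinase, was at -0.36. The wildtype levels of Ern2 (6.94) and Creb3l1 (7.25) were close to the floor. Only Ern2 was higher by 1.5-fold, against 3.58% of all genes. Ern2 encodes the form of IRE1 found in mucosal epithelium. Cytosolic chaperones, which do not belong to the ER, also had 16 of 22 below 0 (median -0.11, and -0.06 under loess centring), led by Hsph1 (-0.39), Cct8 (-0.36) and Hspe1 (-0.35), the last of them mitochondrial. The lean of the luminal chaperones below 0 was thus shared in sign by chaperones outside the ER, and the difference between the lists was not tested.

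**Figure D3:**
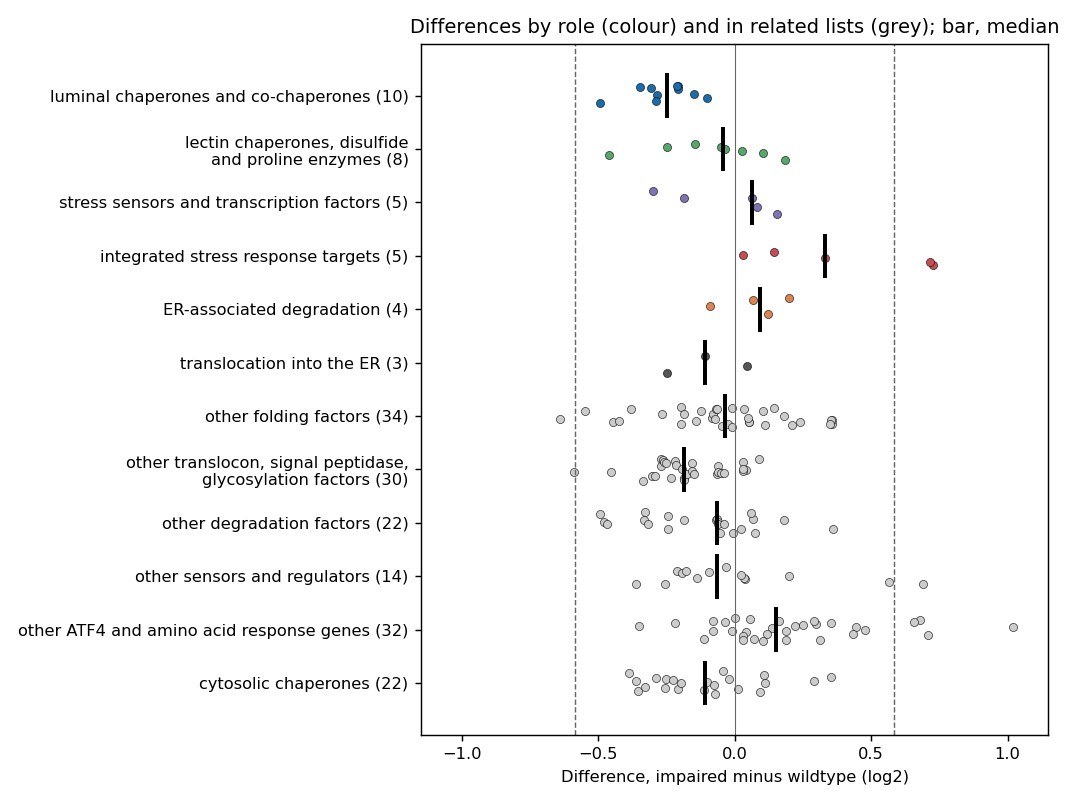
Difference (impaired minus wildtype, log2, horizontal axis) of each gene, by role of the 35 genes (coloured) and in 6 related lists (grey), with the number of genes in brackets; black bars are medians and dashed lines mark 1.5-fold. Luminal chaperones (median -0.25) and stress targets (median 0.33) lie on opposite sides of 0, and the ATF4 list (median 0.15) lies to the right of the other related lists.

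Set beside the promoter matches shown above, the 8 genes with ERSE had a median difference of -0.21, with 7 below 0 and Syvn1 (0.12) above. They ran from -0.46 for Pdia6 through -0.29 for Creld2 and Dnajc3 and -0.21 for Hspa5 and Hsp90b1 to -0.05 for Calr and -0.04 for Canx. The 22 genes with a window but no ERSE had a median of 0.05, and 13 of them lay above 0. All 5 stress targets are among these 22, so motif and role cannot be told apart. Sdf2l1 (-0.31) and Dnajb9 (-0.21), luminal chaperones in the same 22, lay below 0, as did all 10 genes of that role. The 5 genes without a window, Hspa13, Hyou1, Manf, Atf6 and Sec61a1, stand in neither group. The 4 genes with CARE were all above 0, at 0.73 for Chac1, 0.72 for Asns, 0.33 for Trib3 and 0.20 for Herpud1, against a median of -0.10 for the 26 without it. Chac1, Asns and Trib3 are also stress targets, so motif and role cannot be told apart in them. The 2 genes with ERSE-II lay on opposite sides, Dnajb11 at -0.15 and Herpud1 at 0.20. Other genes of the array whose searched windows hold the same motifs are given for comparison. The 13 other genes with ERSE that had a value, 2 of them bright, had a median of 0.02 with 7 above 0. The 2 bright ones had a median of 0.15 with 0 below 0. The 7 other genes with ERSE-II, 5 of them bright, had a median of -0.12 with 5 below 0, and the 561 other genes with CARE had a median of -0.05 with 241 above 0.

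**Figure D4:**
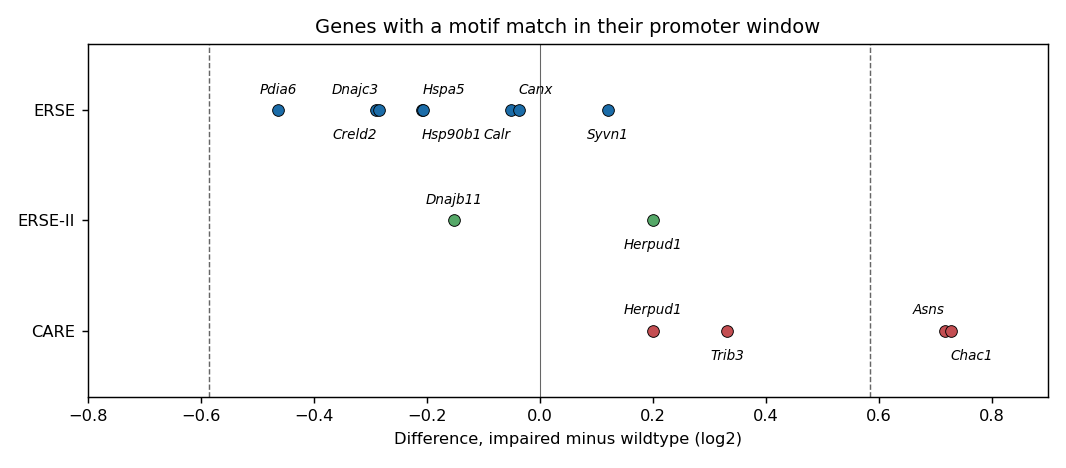
Difference (impaired minus wildtype, log2, horizontal axis) of the genes whose promoter window holds ERSE, ERSE-II or CARE (rows); each point is 1 gene and the dashed lines mark 1.5-fold. All points of the ERSE row except Syvn1 lie below 0, and all 4 of the CARE row lie above 0.

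Marker genes of enterocytes had signal above the floor in both samples, while those of several other cell types lay partly below it; goblet, Paneth, plasma and acinar cells are known as secretory cells rich in ER. Of the T cell and TR1 cell genes 11 of 12 had a value, all above the floor in both samples, with 8 below 0 and a median of -0.02. The largest differences were those of Prdm1 (-0.20), Cd3g (-0.19) and Cd3d (-0.15), the first of them close to those of Hspa5 and Hsp90b1. Il10 stood at 12.94 on the wildtype array and 12.92 on the impaired array, Lag3 at 11.41 and 11.36, Cd3e at 13.58 and 13.57 and Cd4 at 13.14 and 13.18. Of 17 enterocyte markers all were brighter in the impaired sample, 15 by 1.5-fold (median 0.99), led by Sis (1.77), Alpi (1.22) and Slc5a1 (1.22), and their summed linear signal went from 23126 to 41949. Of 12 goblet and Paneth cell markers all were brighter, 11 by 1.5-fold (median 0.88), led by Ang4 (1.71), Lyz1 (1.70) and Itln1 (1.68), with sums of 29256 and 49710. Ang4 and Itln1 lay below the floor in the wildtype sample. Neutrophil markers had 12 of 14 above 0 (median 1.41; sums 2457 and 7330), led by Mmp8 (2.35), S100a8 (2.27) and S100a9 (2.18). Mmp8 lay below the floor in the wildtype sample. The neutrophil markers Mpo, Elane, Camp and Csf3r lay below the floor in both samples.

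Pancreatic acinar markers went the other way. Of 17 with a value 16 were below 0 and 13 lower by 1.5-fold (median -1.44), led by Ctrb1 (-2.33), Try5 (-2.26) and Pnliprp1 (-2.08), and their sum went from 16517 to 6418. Pnliprp1 lay below the floor in the impaired sample. Acinar cells are known for very abundant ER chaperones. Plasma cells, which need XBP1, had 8 of 10 markers above 0 (median 0.26; sums 4549 and 5408), led by Ighm (1.06), Sdc1 (0.62) and Derl3 (0.36), while Mzb1 and Tnfrsf17 lay below the floor in both samples. The bright plasma cell marker Igha was dimmer in the impaired sample (-0.235), and Jchain differed by 0.165. Derl3 is also counted among the other degradation factors, and the plasma cell marker Txndc5 among the other folding factors. Both are among the 8 above 0. B cell markers had 7 of 8 above 0 (median 0.32; sums 952 and 1376), led by Blnk (0.99) and Cd79b (0.60), and the other 6 lay below the floor in both samples. Macrophage and monocyte markers were above 0 in 12 of 12 (median 0.20; sums 2021 and 2770), led by Lyz2 (1.78), Tyrobp (1.03) and Cd14 (0.98), with 7 below the floor in both. Stromal and endothelial markers had 9 of 12 above 0 (median 0.16; sums 1410 and 1737), led by Dcn (1.18), Pdgfrb (0.69) and Acta2 (0.60), with 5 below the floor in both. Dcn, Pdgfrb, Acta2, Cd14 and Derl3 lay below the floor in the wildtype sample. These markers pass the floor only through the sample in which they are high. The part of these cells in the differences of the 35 genes was not tested. In bulk RNA fewer cells of a type and less RNA per cell cannot be told apart.

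**Figure D5:**
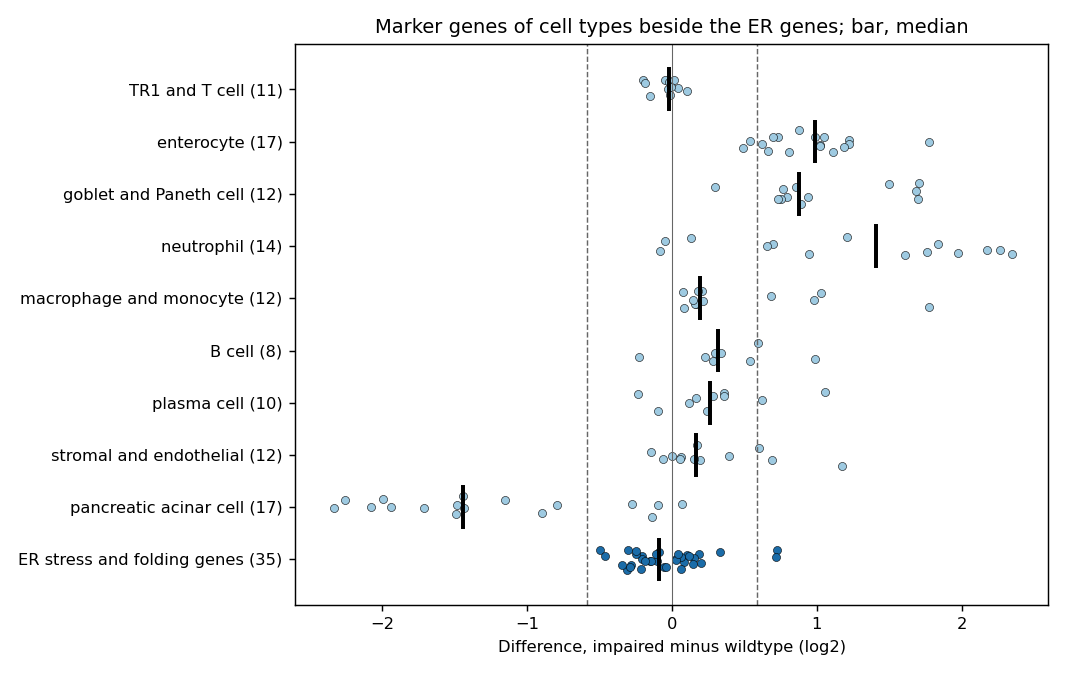
Difference (impaired minus wildtype, log2, horizontal axis) of marker genes of 9 cell types (light blue) and of the 35 ER stress and folding genes (dark blue), with the number of genes in brackets; black bars are medians and dashed lines mark 1.5-fold. Enterocyte (median 0.99), goblet and Paneth (0.88) and neutrophil (1.41) markers lie to the right and acinar markers (-1.44) to the left, while the 35 genes have a median of -0.09.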

How the data were processed

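Per the submitters' processing notes, the authors made the deposited log2 values with affy and RMA, which corrects background, equalises the arrays' distributions and summarises probes into probe sets; no versions or genome build are stated. The table, as deposited, has 34760 probe sets (wildtype 3.86 to 14.6, impaired 3.84 to 14.7). Of these, 21640 had 1 gene symbol in GEO's annotation, 1321 several and 11799 none listed here, giving 19937 genes. Missing list symbols were looked up through RefSeq synonyms. The genes and lists were chosen with earlier results of these data known, and named genes are all 35 plus the 3 largest absolute differences per other list past the floor, with Il10, Lag3, Cd3e and Cd4. Markers named as below the floor in both samples, and Slc7a11, Igha and Jchain, were chosen after their values were seen. Txndc5 is named because it stands in both a marker list and a related list. Differences were called by size, at 1.5-fold and 2-fold, since 1 array per group allows no test; the number of arrays limits the precision. Alternatives were loess centring (fraction 0.2), subtraction of the median, an offset of 32, averaging probe sets, 2 floors on level and other brightness bounds. Scripts were tested on simulated data. Python 3.11.15, numpy 2.4.6, pandas 2.3.3, scipy 1.17.1, statsmodels 0.14.6 and matplotlib 3.10.9 were used.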

Additional observations from a re-analysis of the deposited data

How the results depend on the processing

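Averaging the probe sets of a gene turned the median of the 3 translocation genes from -0.11 to 0.043, because 2 of the 3 Sec61b probe sets lay above 0. With the bright bound at the 90th percentile the dim genes numbered 16 and their median was -0.10 in place of 0.33; with the bound at the median there were no dim genes. The other medians of the 35 genes, their roles and the 6 related lists moved by less than 0.1, a tolerance set for lack of replicates and wider than several of these medians; loess centring took that of the 35 genes from -0.09 to -0.02. The counts at 1.5-fold and 2-fold among the 35 genes were 2 higher and 0 lower, and 0, under each setting. Marker, motif and band values were not recomputed. Loess centring left all 10 luminal chaperones below 0 (median -0.20) and all 5 stress targets above 0 (median 0.26), and so did the offset, averaging and median subtraction in sign. Single genes changed sign in 3 cases: Canx under loess centring, and Pdia4 and Sec61b under averaging. No replicate could be left out with 1 array per group. No paired analysis was possible because each group holds 1 sample. The background correction of RMA could not be varied without scanner files.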
